A study of Bos taurus with 9 samples.

Results

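Transcripts of prostaglandin synthesis enzymes were followed on 9 one-colour Affymetrix arrays of cultured bovine cells from the nucleus pulposus, the soft centre of an intervertebral disc. The members were every probe set that the platform annotation assigns to only 1 of 7 gene symbols: the cyclooxygenases PTGS1 and PTGS2, the prostaglandin E synthases PTGES, PTGES2 and PTGES3, the prostacyclin synthase PTGIS and the prostaglandin D synthase PTGDS. This gave 9 probe sets of 6 genes among 9155 genes and 13292 probe sets with a single symbol, of 24016 probe sets outside the manufacturer's controls: 3 for PTGS2, 2 for PTGS1 and 1 each for PTGES, PTGES3, PTGIS and PTGDS. PTGES2 had no probe set with a single symbol in the annotation used and was not analysed here. The gene identifiers in the annotation are 282022 for PTGS1, 282023 for PTGS2, 282019 for PTGES, 493638 for PTGES3, 282021 for PTGIS and 286858 for PTGDS. Where a gene has several probe sets they are numbered by mean brightness, set 1 being the brightest. Of the 9, 7 had a mean above the 25th percentile of all probe sets and entered the test; the dim PTGDS probe set and PTGS2 set 3 did not.

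The cells came from caudal intervertebral discs of young calves and were grown in DMEM with 10% serum. They were left untreated (control, 3 arrays, with no culture time given), or brought with salt to a final 500 mOsm/kg for 5 h (3 arrays) or for 24 h (3 arrays), in order to compare transcript levels under hyperosmotic stress with those at rest. The labels call the 3 arrays of a group biological replicates but leave unsaid whether each was a different animal, and the p-values therefore reflect only how far these cultures vary. The same control arrays serve both times, and time in culture and time in salt cannot be told apart.

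Prostaglandins are lipid mediators made from arachidonic acid, which phospholipases release from membranes. A cyclooxygenase turns it into prostaglandin H2: PTGS1 is usually described as the constitutive form and PTGS2 as the form induced by cytokines and growth factors. Terminal synthases then convert prostaglandin H2 into prostaglandin E2, D2, F2-alpha, prostacyclin or thromboxane. In disc tissue, prostaglandin E2 is known mainly as a mediator of inflammation and pain.

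Values are deposited PLIER intensities on a linear scale, and changes are differences of group means on the scale log2(intensity + 16), which understates changes of dim probe sets. Array medians lay between 67.1 and 84.5. In a principal component analysis, component 1 (47.7% of the variance) set the 3 arrays numbered 3 apart from the other 6, and component 2 (31.1%) set the 24 h arrays apart, with control replicate 1 the control array closest to them. Arrays that share a number deviated together, so a fit with the replicate number as a block was also made. As markers of identity, the main disc proteoglycan ACAN had intensities from 497 to 4026 and COL2A1 from 29.1 to 330, while the keratins KRT8 and KRT19, also used as nucleus pulposus markers, stayed at or below 23.2 and 13.6. The collagen genes COL1A1 and COL1A2, read here as annulus or tendon-type markers, were brighter than COL2A1. They had intensities from 1068 to 4833 and from 7565 to 11503. Fewer cells of a type and less RNA per cell cannot be told apart in such samples.

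**Figure D1:**
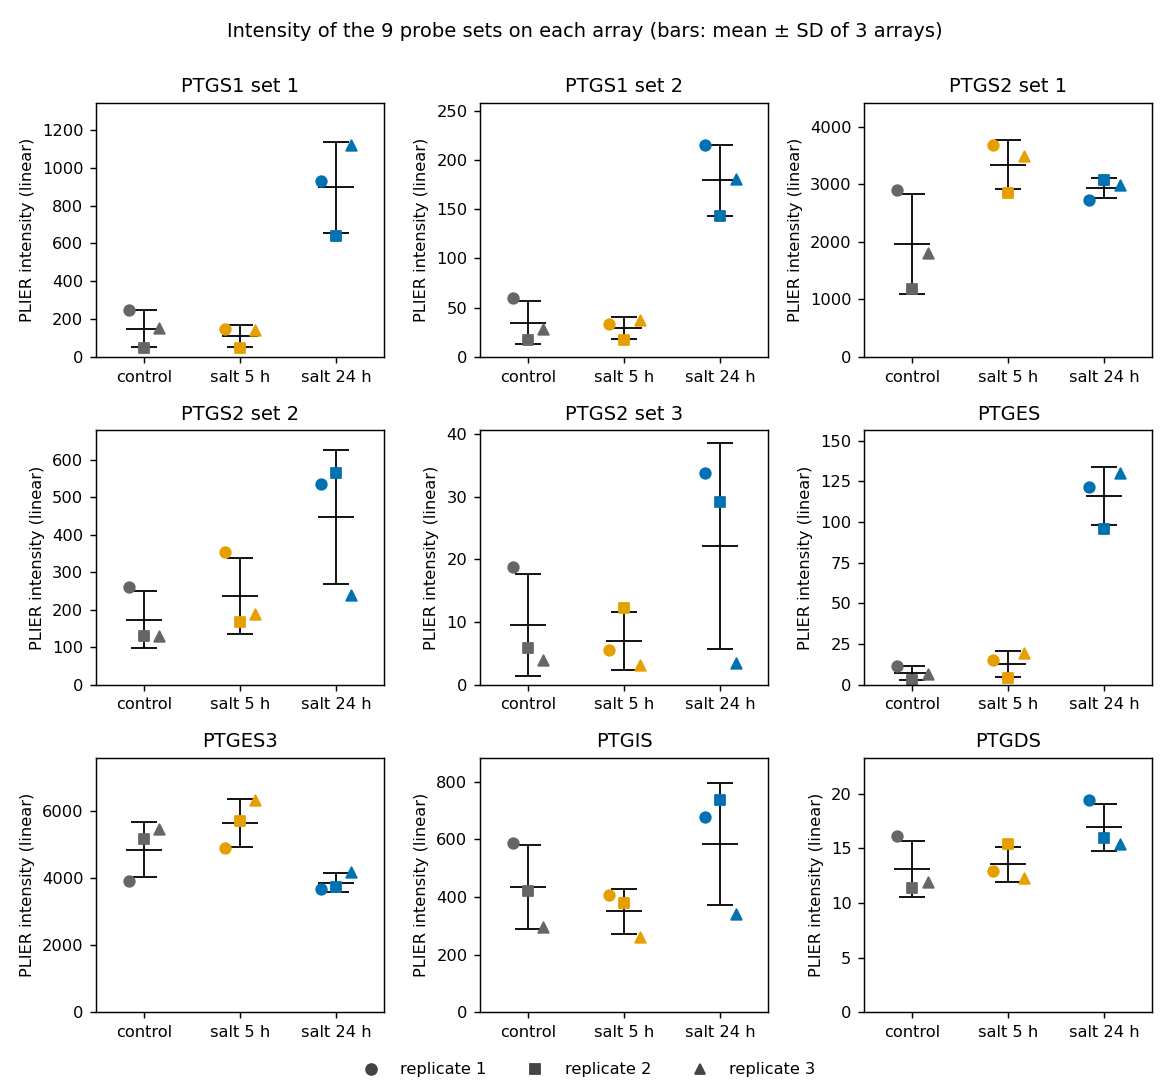
PLIER intensity (linear axis starting at 0) of each of the 9 probe sets on each array, by group; symbols mark the replicate number and bars the mean ± SD of 3 arrays. PTGES and both PTGS1 probe sets are higher on every 24 h array than on any other array, whereas the PTGS2, PTGIS and PTGDS groups overlap.

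At 24 h the genes for 2 steps of prostaglandin E2 synthesis stood above control: the cyclooxygenase PTGS1, with a rise of 2.65 ± 0.55 on the log2 scale for set 1 and 2.01 ± 0.33 for set 2 (SE, 3 arrays a group), and the synthase PTGES, with 2.52 ± 0.24. At 5 h none of the 9 probe sets passed, in the main fit or without the filter on dim probe sets. In these fits PTGS2, PTGIS and PTGDS passed against control at neither time. With the block PTGS2 set 1 passed at both times and set 2 at 24 h. PTGIS did not pass against control with it (limma adjusted p = 0.32 at 5 h and 0.054 at 24 h), and PTGDS was not fitted. Some fits with arrays left out also called PTGS2 at 24 h. PTGES3 was lower at 24 h than at 5 h, by 0.54 ± 0.15. Calls rest on limma fitted to the whole table, with a Benjamini-Hochberg adjusted p under 0.05.

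In counts, limma called 0 of 7 tested members at 5 h, against 0.483% of all tested probe sets; at an unadjusted p under 0.05 it gave 1 member and 1299 probe sets in all. At 24 h against control 3 of 7 were called, all higher, against 8.61%, and at 24 h against 5 h 3 were higher and 1 lower, against 14.2%. PTGES, however, entered the test only through its 24 h arrays: its mean log2 value over the control and 5 h arrays was 4.66, below the filter at 5.05. The fit was therefore also read without any filter, over all 9 members. It called 0, 3 and 4 of 9 in the comparisons of 5 h with control, 24 h with control and 24 h with 5 h, against 0.308%, 5.52% and 9.48% of all 24016 probe sets. The median change over the 9 members was then 0.022, 0.67 and 0.67, against medians of -0.023, 0.017 and 0.037 over all probe sets. Groups did not overlap for 0, 3 and 4 of the 9 members in these comparisons, against 10.2%, 23.4% and 27.3% of all probe sets.

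The fit with the replicate block called more: 1 of 7 tested members at 5 h (PTGS2 set 1), 6 at 24 h against control and 6 at 24 h against 5 h. The background rose too, to 5.86%, 35.8% and 43.8% of all tested probe sets. A call under the block at 24 h is therefore shared with a large part of the array. PTGES was among the 7 only through its 24 h arrays, and the block was not fitted without the filter. The block counts of members are therefore not read against these shares.

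**Figure D2:**
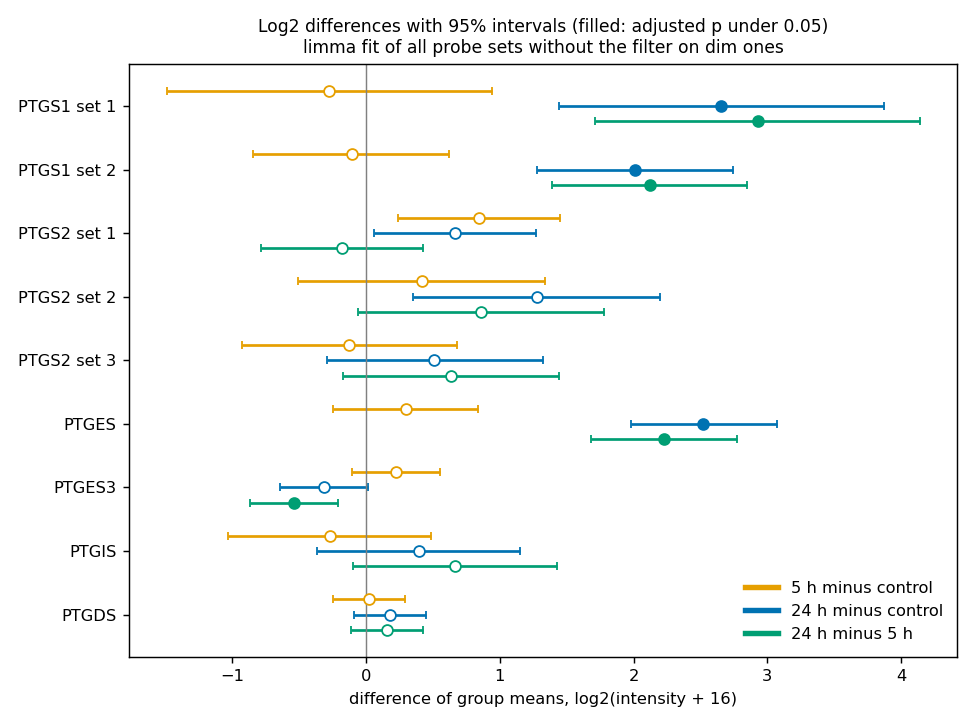
Differences of group means on the log2(intensity + 16) scale for the 9 probe sets, with 95% intervals from the limma fit to all 24016 probe sets; colours mark the comparison and filled points an adjusted p under 0.05. PTGES and both PTGS1 sets lie near or above 2 at 24 h against control and 24 h against 5 h, and PTGES3 is the only filled point below 0.

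PTGS1, cyclooxygenase-1, was read by a bright and a dimmer probe set. Set 1 had intensities of 246.2, 48.2 and 153.3 on control arrays 1, 2 and 3, of 147.6, 45.7 and 143.1 at 5 h and of 932.5, 640.3 and 1119 at 24 h. Every 24 h array thus lay above every other array, while control and 5 h overlapped and array 2 was the lowest of each group.

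The group means of PTGS1 set 1 were 149 ± 99 in control (SD, n = 3), 112 ± 58 at 5 h and 897 ± 242 at 24 h, so that the 24 h mean was 6.01 times that of control. The change at 24 h was 2.65 with a 95% interval of 1.41 to 3.90 (limma adjusted p = 0.023). Against 5 h it was 2.93 ± 0.55 (adjusted p = 0.012), and at 5 h against control -0.28 ± 0.55 (adjusted p = 1). Within the numbered pairs the 24 h differences from control were 1.85, 3.35 and 2.75. The call at 24 h against control ended without control replicate 2 (adjusted p = 0.069), control replicate 3 (0.058) or any of the 24 h replicates 1, 2 and 3 (0.088, 0.050 and 0.061), with values from 2.08 to 3.09 over all 9 omissions; the call against 5 h was kept in each.

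PTGS1 set 2 was dimmer and moved the same way. Its intensities were 59.4, 16.8 and 28.5 in control, 33.7, 16.8 and 37.8 at 5 h and 214.9, 143.0 and 180.4 at 24 h. The 24 h arrays again lay above the other 6, and array 2 was again the lowest in each group.

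The change of PTGS1 set 2 at 24 h was 2.01 with a 95% interval of 1.27 to 2.75 (adjusted p = 0.011), and 2.12 ± 0.33 against 5 h (adjusted p = 0.0061). At 5 h it was -0.11 ± 0.33 (adjusted p = 1). Its call at 24 h ended without 24 h replicate 1 (adjusted p = 0.054), and with a pseudocount of 64 its size was 1.31. Both probe sets of the gene thus gave no call at 5 h and a rise at 24 h, though they read 1 transcript and are not independent evidence.

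PTGS2, cyclooxygenase-2, was read by 3 probe sets that differed widely in brightness. Set 1, whose mean level lay at the 97.2 percentile of all probe sets, had intensities of 2898, 1186 and 1811 in control, of 3676, 2852 and 3496 at 5 h and of 2733, 3079 and 2990 at 24 h. Control replicate 1 lay within the range of the salt arrays, and it alone made control overlap with 5 h and with 24 h. Controls 2 and 3 lay below every salt array.

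The means of PTGS2 set 1 were 1965 ± 866 in control (SD, n = 3), 3342 ± 433 at 5 h and 2934 ± 180 at 24 h. The change at 5 h was 0.85 ± 0.27, with a 95% interval of 0.23 to 1.47 and limma adjusted p = 0.38, and 0.043 with the replicate block. At 24 h it was 0.67 ± 0.27 (adjusted p = 0.18, and 0.030 with the block). Between 24 h and 5 h the difference was -0.18, with an interval from -0.80 to 0.44. Pairs 1, 2 and 3 gave 0.34, 1.25 and 0.94 at 5 h and -0.084, 1.36 and 0.72 at 24 h, pair 1 being the lowest at both times. Without control replicate 1 the 24 h change was 0.99 (adjusted p = 0.026), and without control replicate 2 it was 0.35 (adjusted p = 0.44).

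PTGS2 set 2 had intensities of 260.8, 129.4 and 128.6 in control, 353.5, 167.1 and 187.8 at 5 h and 536.4, 565.9 and 240.6 at 24 h. The 24 h arrays 1 and 2 lay above all others, and array 3 lay below control replicate 1. Its change was 0.42 ± 0.42 at 5 h (adjusted p = 1) and 1.28 ± 0.42 at 24 h, with an interval of 0.33 to 2.22 (adjusted p = 0.097, and 0.0023 with the block). Against 5 h it was 0.86 ± 0.42 at 24 h (adjusted p = 0.21, and 0.013 with the block). Without 24 h replicate 3 the 24 h change from control was 1.66 (adjusted p = 0.049).

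The brighter PTGS2 sets differed in course: set 1 had its highest mean at 5 h and set 2 at 24 h. This difference between probe sets was not tested. PTGS2 set 3 was near the floor, with 18.8, 5.8 and 3.9 in control, 5.5, 12.2 and 3.2 at 5 h and 33.8, 29.2 and 3.4 at 24 h, and in the fit without the filter its 24 h change was 0.51 ± 0.36 (adjusted p = 0.53).

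PTGES, the inducible microsomal prostaglandin E synthase known to work with PTGS2, had the smallest adjusted p of the members at 24 h. Its probe set was near the floor at rest, with intensities of 11.5, 2.9 and 6.8 in control and of 14.9, 4.0 and 19.4 at 5 h. At 24 h it stood at 121.5, 95.8 and 130.3. All 24 h arrays were far above the other 6, while control and 5 h overlapped.

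The means of PTGES were 7.07 ± 4.31 (SD, n = 3), 12.8 ± 7.9 and 116 ± 18, a 24 h mean 16.4 times that of control; this ratio is imprecise because its lower term lies near the floor. On the log2 scale the change was 2.52 with a 95% interval of 1.98 to 3.07 (limma adjusted p = 0.0024, and 0.0023 without the filter), and 2.23 ± 0.24 against 5 h (adjusted p = 0.0026). Its size depends on the pseudocount, being 4.0 with 1 and 1.34 with 64, and it was called with both. The 3 pairs gave 2.32, 2.56 and 2.68, and the call was kept without any 1 array, with adjusted p at most 0.019. At 5 h the change was 0.30 ± 0.24, with an interval from -0.25 to 0.84 (adjusted p = 1).

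PTGES3, known both as cytosolic prostaglandin E synthase and as the Hsp90 co-chaperone p23, was bright in every culture. Its probe set read 3921, 5179 and 5479 in control, 4903, 5718 and 6326 at 5 h and 3678, 3748 and 4188 at 24 h. The 5 h arrays were all above the 24 h arrays, and control overlapped both groups, with control replicate 1 its lowest array.

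Between 5 h and 24 h PTGES3 fell by 0.54 ± 0.15 on the log2 scale, from 5649 ± 714 to 3871 ± 277 (SD, n = 3; adjusted p = 0.041). This call sat close to the threshold. It ended under quantile normalization (-0.48, adjusted p = 0.059), without the intensity trend (0.073), without the 3 arrays numbered 3 (-0.51, 0.060), without control replicate 2 (0.056) and without any 5 h or 24 h array (up to 0.13). Against control PTGES3 was 0.22 ± 0.15 at 5 h (adjusted p = 0.99) and -0.31 ± 0.15 at 24 h (adjusted p = 0.24, and 0.013 with the block). PTGES and PTGES3 thus stood on opposite sides of 0 at 24 h against 5 h, with intervals of 1.68 to 2.77 and of -0.87 to -0.21.

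**Figure D3:**
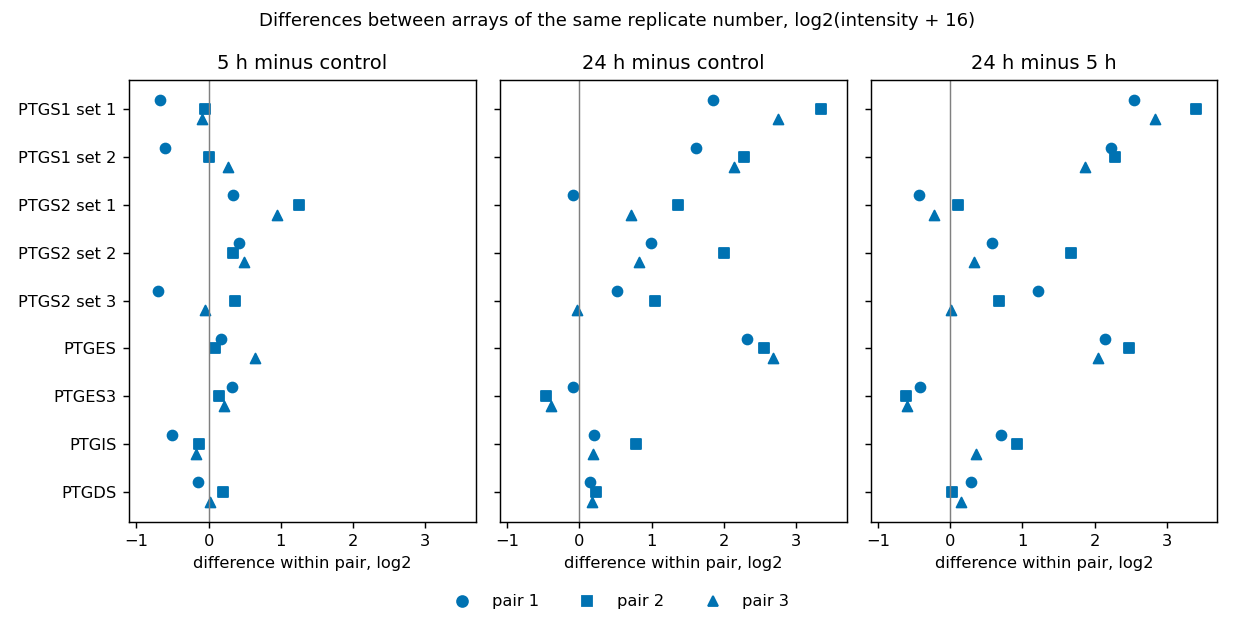
Differences within pairs of arrays that share a replicate number, on the log2(intensity + 16) scale; each symbol is 1 pair, and panels are the 3 comparisons. For PTGES and PTGS1 all 3 pairs lie between 1.61 and 3.41 in the panels with 24 h arrays, and for PTGES3 all 3 pairs lie below 0 at 24 h against 5 h. The groups do not overlap in these cases, which fixes the signs of the pairs.

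PTGIS, which makes prostacyclin, read 586.7, 419.4 and 297.6 in control, 408.3, 380.4 and 261.2 at 5 h and 677.8, 735.7 and 341.1 at 24 h. Array 3 was the lowest of every group and the groups overlapped. The change was -0.27 ± 0.34 at 5 h (adjusted p = 1) and 0.39 ± 0.34 at 24 h, with an interval from -0.38 to 1.17 (adjusted p = 0.58). Against 5 h the 24 h value was 0.67 ± 0.34 (adjusted p = 0.24, and 0.0041 with the replicate block); within pairs it was 0.71, 0.92 and 0.37. Without the 3 arrays numbered 3 it was 0.82 (adjusted p = 0.030).

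PTGDS, the lipocalin-type prostaglandin D synthase, stayed near the floor. It read 16.1, 11.4 and 11.9 in control, 12.9, 15.4 and 12.3 at 5 h and 19.4, 16 and 15.4 at 24 h, with overlapping groups. Fitted without the filter, its change was 0.022 at 5 h and 0.18 ± 0.12 at 24 h (adjusted p = 0.51), with an interval from -0.09 to 0.45 that is understated for so dim a probe set.

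Other genes of the pathway were read from 9 lists, each gene by its single-symbol probe set with the highest mean over all 9 arrays. The 24 h values thus had a part in choosing the probe set that was tested at 24 h. The counts of the lists are to be read against the background of all tested probe sets called: 0.483% at 5 h, 8.61% at 24 h and 14.2% at 24 h against 5 h, or 5.86%, 35.8% and 43.8% with the replicate block. For counts at an unadjusted p under 0.05 the background in limma is 1299, 4243 and 5225 of the 18012 tested probe sets. The same backgrounds hold for the counts of cell type markers below. At 5 h limma called 0 genes of the 9 lists; at an unadjusted p under 0.05 there were 5 inducers and regulators and 1 Hsp90 partner, and 0 in each of the other 7 lists. In the list of phospholipases and related genes, 0 of 6 tested members were called in any comparison, with 0, 3 and 3 at an unadjusted p under 0.05 at 5 h, at 24 h and at 24 h against 5 h; its brightest member, annexin ANXA1, known to restrain phospholipase A2, stood at -0.23 at 24 h (adjusted p = 0.11). With the replicate block 2 rose and 1 fell at 24 h. Cytosolic phospholipase A2, PLA2G4A, was not analysed here.

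In the list of arachidonate supply and re-esterification, 1 of 8 rose at 24 h against control, the delta-6 desaturase FADS2, by 1.07 (adjusted p = 0.046, and 0.054 without the filter), against 8.61% of all tested probe sets; with the block 4 rose and 1 fell, against 35.8%. Against 5 h, 3 of 8 rose: FADS2 by 1.35, the lysophospholipid acyltransferase LPCAT3 by 1.26 and the fatty acid binding protein FABP3 by 1.12. The acyl-CoA synthetase ACSL1 fell by 0.53 (adjusted p = 0.038, and 0.052 without the filter). The median over the 8 was 0.20 at 24 h against control.

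Of the 6 other terminal prostanoid synthases measured, AKR1B1 and AKR1C4 rose at 24 h in the fit without the filter, which called 5.52% of all probe sets. With the filter 5 were tested, but AKR1C4 entered only through its 24 h arrays, its mean log2 value over the control and 5 h arrays being 4.90 against the filter at 5.05, so no count over the tested genes is read. AKR1B1, aldose reductase, which also has prostaglandin F synthase activity, had means of 1181 ± 191 in control, 1557 ± 154 at 5 h and 3822 ± 888 at 24 h (SD, n = 3). It rose by 1.67 (adjusted p = 0.0038) at 24 h, and at 5 h stood at 0.40 (adjusted p = 0.74, and 0.028 with the block). AKR1C4, of a family of aldo-keto reductases with close relatives that may share probes, rose by 2.5 from 13.5 ± 9.4 to 159 ± 93 (adjusted p = 0.0095 without the filter, and 0.0088 with it). Of its other 5 probe sets 4 were below the filter and 1 stood at 0.68 (adjusted p = 0.27). Thromboxane synthase, TBXAS1, stood at -0.028 (adjusted p = 0.98) and the prostaglandin F synthase PRXL2B at -0.44 (adjusted p = 0.35, and 0.023 with the block).

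Prostanoid receptors gave 0 calls among 6 tested members in any comparison (limma; 0, 1 and 1 at an unadjusted p under 0.05), with a median of 0.11 at 24 h. The brightest, the fatty-acid-sensing nuclear receptor PPARD, stood at 0.11 (adjusted p = 0.94). The prostaglandin F receptor PTGFR, chosen for mention after its values were seen, stood at -0.85 at 24 h, from 447 ± 53 to 250 ± 85 (adjusted p = 0.084), and was the 1 receptor to fall with the block (0.0014). The prostaglandin E receptors PTGER3 and PTGER4 stood at 0.10 and 0.38 (adjusted p = 0.87 and 0.81), and PTGER2 was at or below 9.4 on every array. Of 4 tested genes of transport and breakdown limma called 0, also at an unadjusted p under 0.05; the brightest, the reductase PTGR1, stood at 0.13 at 24 h (adjusted p = 0.71), and 1 rose with the block. The degrading enzyme HPGD and the transporter SLCO2A1 did not exceed 14.8 and 14.6.

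Among 3 tested relatives of PTGES in the MAPEG family of membrane enzymes, 0 were called at 24 h against control by limma, with 2 at an unadjusted p under 0.05, and 2 rose with the block. Against 5 h the glutathione transferase MGST1 rose by 1.21 (adjusted p = 0.019). In the lipoxygenase branch, which draws on the same arachidonic acid, 1 of 4 rose at 24 h, against 8.61% of all tested probe sets: LTA4H, the leukotriene A4 hydrolase, by 0.74 (adjusted p = 0.038). ALOX5 and its partner ALOX5AP were below the filter.

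Of 15 tested genes of Hsp90 and its co-chaperones, with which PTGES3 works as p23, 1 fell at 24 h against control, against a background of 8.61%, and 5 fell against 5 h, against 14.2%; their medians were -0.33 and -0.43. With the block 7 and 10 fell, against 35.8% and 43.8%, and at 5 h 1 rose. CDC37, ST13 and UNC45A stood at 0.020, 0.0040 and 0.14 at 24 h against control, none of them called. HSPA8 fell by 0.84 against control (adjusted p = 0.025). Against 5 h the members that fell were HSPA8 by 0.79, HSP90AA1 by 0.57, the adaptor STIP1 by 1.0, DNAJB1 by 0.82 and the cyclophilin PPID by 0.65. The probe sets of PPID disagree, since a dimmer one rose by 0.70 (adjusted p = 0.023), and a dimmer set of DNAJB1 stood at 0.022. The medians over all tested probe sets were 0.023 and 0.057. Centring each array moved the second of these by -0.153, and the list's medians were then -0.40 and -0.58.

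Of 26 tested inducers and regulators of PTGS2 and PTGES, 0 were called at 5 h, 1 rose and 1 fell at 24 h against control, and 3 rose and 1 fell against 5 h. These counts are near the 8.61% and 14.2% of all tested probe sets called, and are no result about the list. With the block 1 rose and 3 fell at 5 h, 9 rose and 3 fell at 24 h, and 11 rose and 3 fell against 5 h. The 1 that rose at 5 h was CREB1, at 1.23 with every array above control (limma adjusted p = 0.099, and 0.00785 with the block). The NF-kB inhibitor and target NFKBIA rose by 1.18 at 24 h (adjusted p = 0.0495, and 0.059 without the filter) and the RNA-binding protein ELAVL1, known to stabilise PTGS2 mRNA, fell by 0.49 (adjusted p = 0.030). EGR1, a factor known to drive PTGES transcription, had a 5 h value of -2.41 (adjusted p = 0.12, and 0.0057 with the block) and then rose by 2.18 from 5 h to 24 h (adjusted p = 0.028), to -0.23 against control (adjusted p = 0.89). A dimmer EGR1 probe set gave 0.13 for that step (adjusted p = 0.79). The C/EBP factor CEBPD, at -1.11 at 5 h (adjusted p = 0.20), rose by 2.13 from 5 h to 24 h (adjusted p = 0.0043), and the phosphatase DUSP1 by 1.49 (adjusted p = 0.011). Another CEBPD probe set, also dimmer, rose by 2.48 from 5 h to 24 h (adjusted p = 0.0056). The dimmest CEBPD set gave 0.85 (adjusted p = 0.15). IL1B stayed between 31.5 and 48.6, IL1A between 11.6 and 25.3 and TNF between 36.6 and 100.1.

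**Figure D4:**
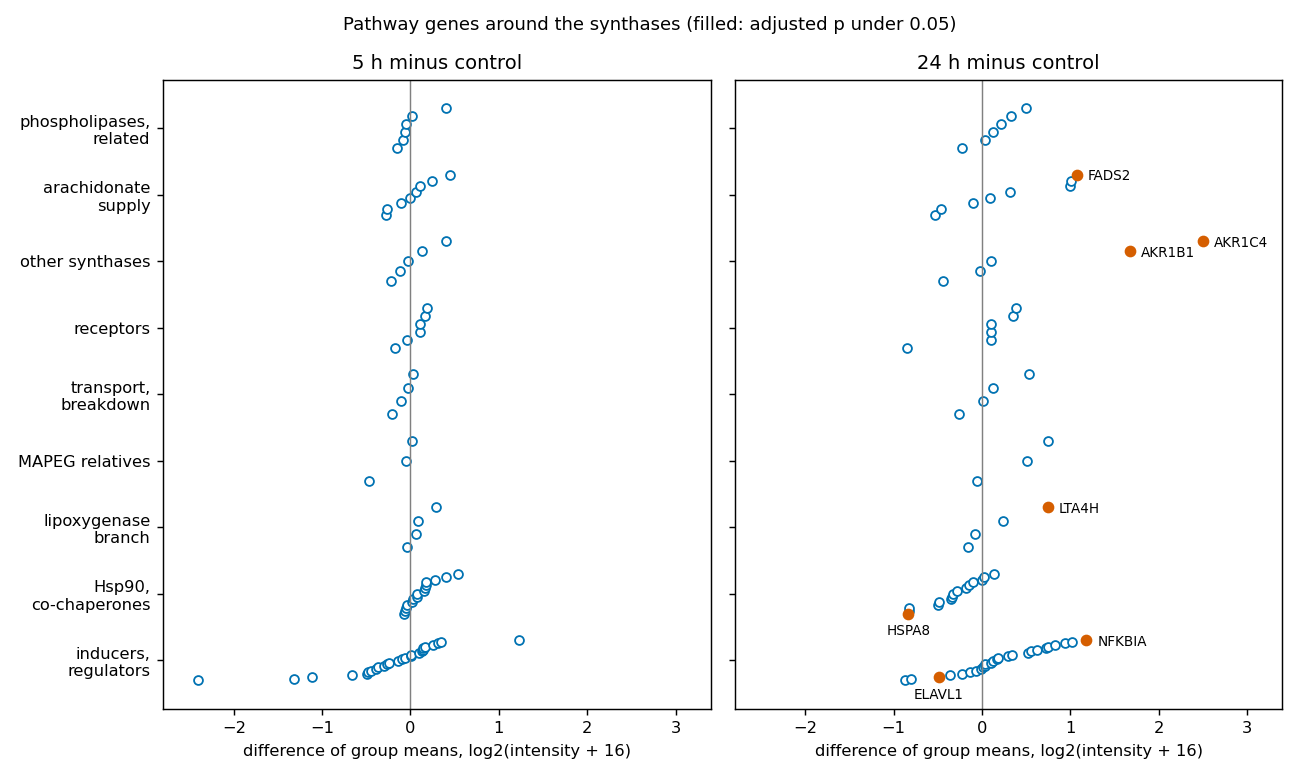
Differences of group means on the log2(intensity + 16) scale for the tested genes of 9 pathway lists, at 5 h (left) and 24 h (right) against control; each point is 1 gene and filled, labelled points have an adjusted p under 0.05. No point is filled at 5 h, and at 24 h AKR1C4 (2.5) and AKR1B1 (1.67) lie farthest to the right. AKR1C4 entered the test only through its 24 h arrays, and its other tested probe set, at 0.68, was not called.

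Markers of other cell types were read beside these results, since leukocytes, mast cells and endothelium also make prostanoids. Of 7 measured leukocyte markers, 5 were tested and 1 rose at 24 h, against 8.61% of all tested probe sets. This was CD14, by 1.43 (limma adjusted p = 0.0054). PTPRC, however, entered the test only through its 24 h arrays. Its mean log2 value over the control and 5 h arrays was 4.90, below the filter at 5.05. Without the filter 1 of the 7 was called at 24 h, again CD14 (limma adjusted p = 0.0068), against 5.52% of all probe sets. The summed intensity of the 7 was 197 to 207 in control, 203 to 216 at 5 h and 393 to 436 at 24 h. Most of the gain was CD14, with means of 95.6 ± 10.8 in control and 285.6 ± 49.1 at 24 h (SD, n = 3), while CD68 had 42.6 and 44.6, CSF1R 14.8 and 16.9 and AIF1 24.3 and 33.9. CSF1R was higher at 5 h, with a mean of 33.2 and every array above control. Its change there was 0.67 (limma adjusted p = 0.23, and 0.030 with the block). From 5 h to 24 h it stood at -0.56 (adjusted p = 0.071, and 0.012 with the block). PTPRC reached 36.8, ITGAM 7.4 and TYROBP 12.8 at most; PTPRC was listed at 0 on 1 array of the 5 h group. The 3 measured mast cell markers were all below the filter, with sums of 27.4 to 33.7 in control, 21.7 to 24.0 at 5 h and 38.8 to 50.1 at 24 h. The gain was in the histidine decarboxylase gene HDC alone, with 0 to 1.9 in control, 0 to 2.3 at 5 h and 21.1 to 35.6 at 24 h. In contrast, KIT had means of 14.5 ± 1.7 in control and 10.7 ± 2.2 at 24 h, without overlap, and TPSB2 14.6 ± 3.8 and 8.73 ± 5.37. Without the filter HDC was the 1 of these 3 called at 24 h against control, by 1.31 (limma adjusted p = 0.0032), against 5.52% of all probe sets. The part of these markers in the rise of PTGS1 and PTGES was not tested.

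Endothelial markers summed over 6 genes to 166 to 223 in control, 175 to 210 at 5 h and 173 to 210 at 24 h. Of 5 tested genes limma called 0 at 24 h against control, against 8.61% (1 at an unadjusted p under 0.05). With the block CLDN5 was called lower and TEK higher, against 35.8% of all tested probe sets. TEK entered the test only through its 24 h arrays. Its mean log2 value over the control and 5 h arrays was 4.94, below the filter at 5.05. Without the filter TEK was not called at 24 h against control (limma adjusted p = 0.26). Against 5 h CLDN5, a tight junction gene, fell by 0.73 (adjusted p = 0.034). VWF reached 31.8 at most. For 5 smooth muscle and pericyte genes the sums were 137 to 283, 151 to 226 and 111 to 212, and for 3 erythroid genes 60.2 to 87.7, 66.9 to 117.6 and 47.6 to 70.7, with 0 called in either (limma), also at an unadjusted p under 0.05; with the block 1 erythroid gene fell at 24 h against 5 h. Of 4 tested annulus and tendon-type markers 2 rose at 24 h, COL12A1 by 1.73 and THY1 by 0.74, against 8.61% of all tested probe sets. COL1A1 and COL1A2 stood at -0.32 and -0.22 (adjusted p = 0.84 and 0.40) and fell with the block (0.046 and 0.026). The list had sums over 5 genes of 11262 to 17878, 10445 to 13869 and 13376 to 17181. The 5 measured nucleus pulposus markers summed to 567 to 2531, 667 to 1506 and 1572 to 4288, with 0 of 3 tested called at 24 h (1 at an unadjusted p under 0.05 in limma, and ACAN higher with the block).

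As a description, the genes whose log2 values over the 9 arrays were most like those of PTGES among 10774 single-symbol probe sets were the calcium-dependent kinase CAMK2D (Pearson r = 0.99), the kinase STK38 (0.99), the tethering factor VPS52 (0.99), the integrin ITGB3 (0.99) and IGFALS (0.99). Each had its highest mean at 24 h, as with STK38 at 1422, 1780 and 4629 and CAMK2D at 751, 848 and 1628 in control, at 5 h and at 24 h. The 24 h arrays stand apart for PTGES, so these values largely measure that step. For PTGS2 set 1 the closest were the apoptosis inhibitor BIRC3 (r = 0.92), the heat shock gene HSPA1A (0.91), the Wnt agonist RSPO3 (0.90), the translational regulator CPEB4 (0.90) and TMEM86A (0.88). The arrays share the controls and the replicate structure described above, and HSPA1A has close relatives that may share probes.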

How the data were processed

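The authors deposited 1 table of intensities on a linear scale, for which the submitters' processing notes name PLIER and Affymetrix Expression Console; versions, settings and any scaling between arrays are not stated there. Its 24128 rows include 112 manufacturer control probe sets, which were left out. Symbols came from the platform annotation supplied, and only probe sets with 1 symbol were named. Values were transformed as log2(intensity + 16), and a filter at the 25th percentile of probe-set means kept 18012. Group means of all 9 arrays were fitted with limma 3.58.1 in R 4.3.3 (lmFit, eBayes with an intensity trend), with Benjamini-Hochberg adjustment over all tested probe sets within a comparison; the script was tested on simulated data. With 3 arrays against 3, an exact two-sided permutation test of 1 probe set cannot go below p = 0.10, so none was used.

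Every member is named; from each pathway list, called genes are named or, with no call, the brightest, and a few further genes are given that were chosen after their values were seen. For likeness to PTGES and PTGS2, the 5 genes with the highest correlation were taken, without placeholder symbols. The members and lists were chosen with earlier results of these data known.

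Replicate numbers were taken to pair the arrays: deviations from group means correlated at 0.56 to 0.90 between arrays of the same number (-0.78 to 0.54 between others). Deviations cancel within a group, so negative values between other numbers are partly built in. Every negative value involved an array numbered 3, whereas arrays numbered 1 and 2 correlated with each other at 0.31 to 0.54. The pseudocount, filter, scaling, block, trend, arrays fitted and each array left out in turn were varied. The number of arrays limits the precision. No sequences or genome positions were used here.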

Additional observations from a re-analysis of the deposited data

Results flagged for a closer look

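The 24 h and 5 h effects of salt differed, by the direct test of 24 h against 5 h (limma), for 4 member probe sets, and both effects use the same control arrays. PTGES differed by 2.23 (adjusted p = 0.0026), PTGS1 set 1 by 2.93 (adjusted p = 0.012) and PTGS1 set 2 by 2.12 (adjusted p = 0.0061), each higher at 24 h in 3 of 3 pairs. PTGES3 differed by -0.538 (adjusted p = 0.041), lower at 24 h in 3 of 3 pairs. For these 4 the 24 h and 5 h groups did not overlap, so the signs of the pairs were fixed by that and add no support. Groups of 3 arrays were not tested for single arrays that stand apart.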

How the results depend on the processing

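Among the member probe sets, the replicate block raised the calls from 0 to 1 at 5 h and from 3 to 6 at 24 h against control; with single arrays left out, the 24 h count ranged from 1 (without 24 h replicate 1, where PTGES alone was kept) to 4. Every group holds 1 array of each number, so the block leaves each change as it is and could alter no direction. It ended no call. Under the other alternatives the 24 h count was 3 or 4 and the 5 h count 0. Only the 5 h values of PTGS1 changed sign, neither called: over single omissions they ranged from -0.847 to 0.186 for set 1 and from -0.383 to 0.218 for set 2, being above 0 without control replicate 1 or 5 h replicate 2. Of the 383 alternative values of single probe sets 353 kept direction and side of the threshold, 10 gained a call, 16 lost one and 4 changed sign. The causes were not tested. Many of these values could not change direction. The block, the trend, the filter and the omission of arrays outside a comparison leave the size of a change as it is. PTGES kept its calls at 24 h in every alternative run. Over the whole table, calls numbered 87, 1550 and 2551 at 5 h against control, 24 h against control and 24 h against 5 h; they were 1056, 6452 and 7884 with the block, 13, 801 and 1923 with only the 6 arrays compared, and 15 to 127, 296 to 1540 and 855 to 2431 with 1 array left out. Centring moved the median of all probe sets at 24 h against 5 h by -0.153. Leaving out the 3 arrays numbered 3 was chosen after seeing the data. PTGES at rest, PTGDS and PTGS2 set 3 lie near the floor, so changes there may go unseen.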
